A study of Mus musculus with 4 samples.

Results

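Genes of ceramide, fatty acid and neutral lipid synthesis were followed in mouse epidermis from 2 transgenic lines. The list held 35 genes, chosen by their known roles but with earlier results of these data known. All 35 were measured among 19938 named genes. A gene was read from the probe set that names it as its only symbol, and from the brightest such probe set over the 4 arrays where there were several. The genes fall into 15 barrier ceramide genes, 15 fatty acid genes and 5 neutral lipid genes, of triglyceride and wax ester synthesis or droplet storage.

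One line overexpresses noggin, a secreted protein that binds and blocks bone morphogenetic proteins (BMPs), and the other overexpresses BMP4, one of those ligands. Both transgenes are driven by the K14 promoter, which is active in basal keratinocytes. The tissue was the epidermis of hairless hindpaw skin, captured from sections with a laser, and 8 to 10 strips were taken per animal. Each array received the pooled RNA of 3 animals, which makes 2 noggin arrays and 2 BMP4 arrays from 6 animals per line, and the spread between arrays is one between pools. The labels state no age, and non-transgenic skin was not analysed here. All differences below are noggin minus BMP4 on the log2 scale of the deposited array intensities, where a difference of 1 is a fold of 2.

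The water barrier of the epidermis is a stack of lipid sheets between dead corneocytes, made largely of ceramides with very long acyl chains, cholesterol and free fatty acids. Granular keratinocytes build the ceramides, glucosylate them, load them into lamellar granules and secrete them. Fatty acid synthesis feeds this pathway and, in sebaceous glands, the making of triglycerides and wax esters that are stored in droplets and released as sebum. Hairless paw skin normally has no hair follicles and so no sebaceous glands attached to them, while its keratinocytes also express many of the same enzymes.

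The arrays were alike in their overall distribution, with medians between 6.04 and 6.06, and across named genes they correlated with r between 0.985 and 0.993. Genes are not independent replicates, so these r describe the arrays only. The markers of epidermis were bright, with Krt14 at 12.25 and 12.25 in noggin and 12.42 and 12.36 in BMP4, and Krt10 and Krt9, a keratin of palm and sole skin, above 13.2 on every array. Neither transgene passed the adjusted test. Nog averaged 5.95 ± 0.048 in noggin and 6.09 ± 0.062 in BMP4, and Bmp4 averaged 7.81 ± 0.063 in noggin and 8.13 ± 0.14 in BMP4 (SD, n = 2 each). Both were lower on both noggin arrays than on both BMP4 arrays, with limma adjusted p of 0.946 for Nog and 0.874 for Bmp4, and Bmp4 was among the genes with an unadjusted p under 0.05. The labels do not say which part of a transcript a transgene holds, so these probe sets do not check them.

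Promoter windows are shown for 3 members with large and small differences, none of which had the lower mean in noggin. Plin2 had the largest difference between the lines, Elovl6 had the second clearest, and Elovl4, a barrier gene, differed by 0.03. The windows are RefSeq sequences of build GRCm38.p6, from 250 bases before to 50 bases after the gene start, written 5′ to 3′ on the strand of the gene. Capitals mark an E-box (CACGTG) or a CCAAT box (CCAAT, on either strand), and Elovl6 has no capitals because its window holds neither. The windows lie at chr4:86670010-86670309 on the minus strand for Plin2, chr3:129532136-129532435 on the plus strand for Elovl6 and chr9:83806256-83806555 on the minus strand for Elovl4.
Plin2: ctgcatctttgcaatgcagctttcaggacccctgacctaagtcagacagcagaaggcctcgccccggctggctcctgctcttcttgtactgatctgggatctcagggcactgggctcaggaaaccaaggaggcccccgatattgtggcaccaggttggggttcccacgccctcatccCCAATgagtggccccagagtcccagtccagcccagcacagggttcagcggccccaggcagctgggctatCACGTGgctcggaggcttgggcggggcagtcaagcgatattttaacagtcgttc
Elovl6: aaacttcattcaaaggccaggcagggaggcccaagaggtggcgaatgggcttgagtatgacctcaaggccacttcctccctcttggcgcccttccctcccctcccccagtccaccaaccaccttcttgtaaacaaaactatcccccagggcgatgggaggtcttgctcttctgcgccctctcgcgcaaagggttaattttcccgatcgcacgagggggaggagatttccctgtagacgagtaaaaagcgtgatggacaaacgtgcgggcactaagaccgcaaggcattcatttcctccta
Elovl4: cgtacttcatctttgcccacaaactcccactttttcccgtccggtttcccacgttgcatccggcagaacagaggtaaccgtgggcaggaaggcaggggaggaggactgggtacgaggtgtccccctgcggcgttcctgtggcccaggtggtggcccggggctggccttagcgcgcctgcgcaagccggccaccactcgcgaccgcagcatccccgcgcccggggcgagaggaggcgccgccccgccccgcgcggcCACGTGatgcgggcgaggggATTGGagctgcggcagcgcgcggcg

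The E-box of Plin2 begins 4 bases before the gene start and that of Elovl4 at base 6 after it. RefSeq windows were at hand for 28 of the 35 members, 30 windows in all. An E-box was found in Plin2, Elovl4, Degs1 and Elovl5, or 4 of 30 windows (13.3%), against 7.15% of 32851 windows of all genes. A CCAAT box lay in 15 of the 30 member windows, against 37.4% of all windows, and in all 3 neutral lipid genes with a window, Plin2, Awat1 and Awat2. The sterol response element core (TCACNCCAC, either strand), the palindromic SMAD box (GTCTAGAC) and the DR1 repeat bound by PPAR and RXR were in 0 of the 30 windows, and in 1.24%, 0.213% and 0.0396% of all windows. These counts describe letters in short windows and were not tested.

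No member passed the test between the lines. Limma, fitted to all 35556 probe sets with Benjamini-Hochberg adjustment, passed 0% of them at the adjusted threshold of 0.05, and the smallest adjusted p of a member was 0.701, for Plin2. Without adjustment, 1994 probe sets had a p under 0.05, among them those of the members Plin2, Elovl6, Scd1 and Awat2. These 4 of 35 (11.4%) compare with 4.28% of named genes, and all 4 had the higher mean in noggin. With 2 arrays a group the smallest two-sided p that an exact permutation test of 1 gene can give is 0.333. The direction of the members is therefore given as a description of these 4 pools.

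The 3 sets are given side by side. The median difference was -0.01 for the barrier ceramide genes, 0.15 for the fatty acid genes and 0.15 for the neutral lipid genes, against -0.01 over all named genes. The groups did not overlap, with noggin on top, in 3 of 15 barrier, 6 of 15 fatty acid and 2 of 5 neutral lipid genes, a pattern seen in 15.7% of named genes. They did not overlap, with BMP4 on top, in 3 barrier genes, 1 fatty acid gene and 0 neutral lipid genes, against 17.9% of named genes. Leaving out noggin replicate 1 put the fatty acid median at 0.03, and leaving out BMP4 replicate 1 put it at 0.06. The neutral lipid median was 0.08 without BMP4 replicate 1, 0.33 without BMP4 replicate 2 and 0.27 without noggin replicate 2. Whether the sets differ from each other was not tested.

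**Figure D1:**
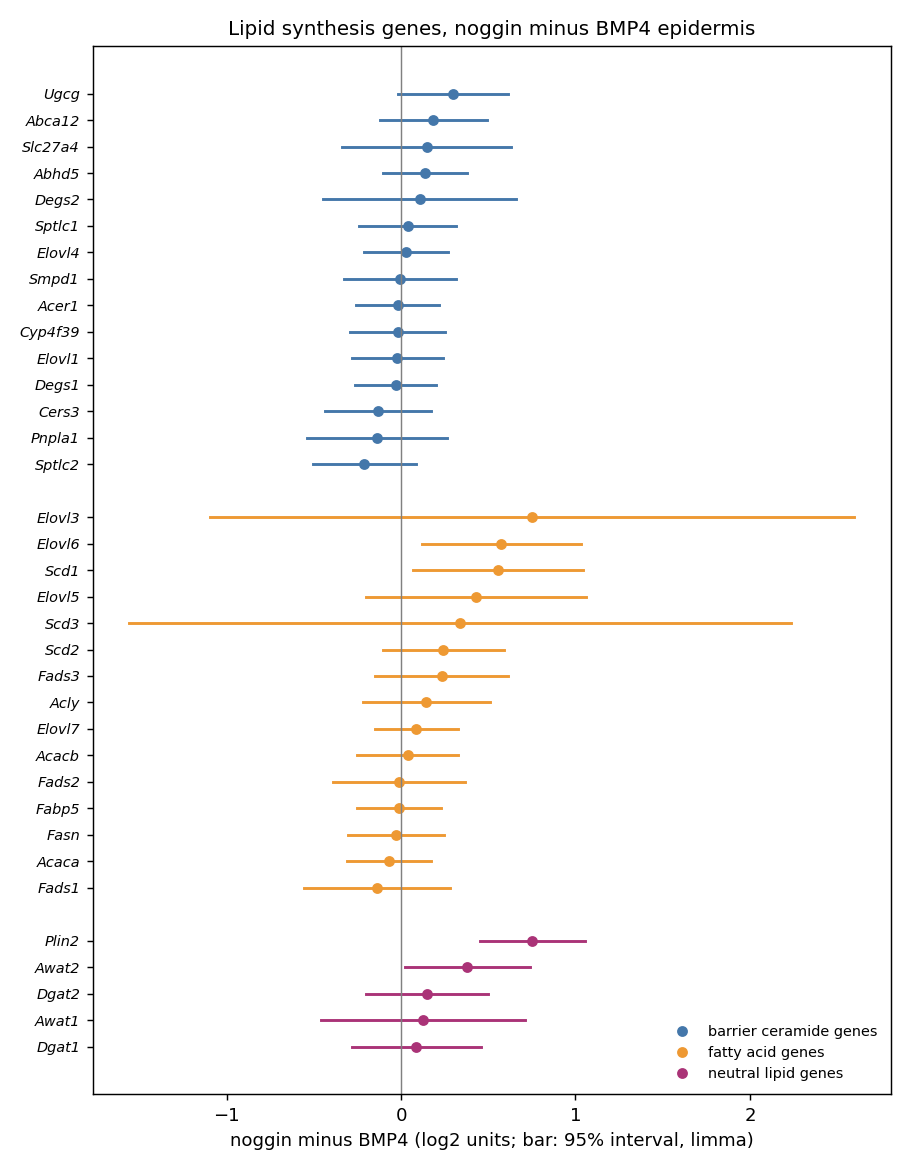
Noggin minus BMP4 difference (log2 units, x axis) of each of the 35 genes, grouped by set, with points for the difference and bars for the 95% interval from limma. The barrier ceramide genes lie between -0.21 and 0.30, while Plin2, Elovl6, Scd1 and Awat2 have intervals that lie above 0 before any adjustment.

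No gene that makes or matures the barrier ceramides passed the test, and their differences were of the size seen across named genes. Of the 15, 13 (86.7%) differed by less than 0.2 log2 units in either direction, against 81.6% of named genes. A higher mean in noggin was seen in 7 of the 15 (46.7%), against 47.8% of named genes. The 95% interval of every one of the 15 lay within 1 log2 unit of 0, as it did for 95.7% of named genes, and the outermost bounds were -0.54 for Pnpla1 and 0.66 for Degs2. A change of 2-fold or more is thus outside the unadjusted interval of each barrier gene, and smaller changes are not resolved by 2 arrays a group.

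At the entry of the pathway, Sptlc1 and Sptlc2 encode the large subunits of serine palmitoyltransferase, which makes the sphingoid base. Sptlc2 measured 9.64 and 9.68 in noggin, against 9.96 and 9.78 in BMP4, a difference of -0.21 with an interval from -0.51 to 0.09 (limma adjusted p = 0.932), and of -0.12 without BMP4 replicate 1. Both noggin arrays were the lower ones, and it was the lowest difference of all 35 members. Its partner Sptlc1 measured 9.23 and 9.32 in noggin, against 9.18 and 9.30 in BMP4, and overlapped.

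Degs1, the desaturase that turns dihydroceramide into ceramide, was among the steadiest genes on the arrays. It measured 11.01 and 10.99 in noggin and 11.02 and 11.03 in BMP4, and only 1.49% of named genes had a smaller spread within groups. Its paralogue Degs2, which makes phytoceramides, was dimmer and scattered, at 6.11 and 5.68 in noggin and 5.64 and 5.94 in BMP4. Each line held one higher and one lower Degs2 array, so the groups overlapped.

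The acyl chains that set barrier ceramides apart are lengthened by Elovl1 and Elovl4, joined to the base by the ceramide synthase Cers3, and hydroxylated at the far end by Cyp4f39, the mouse counterpart of human CYP4F22. Elovl4 measured 10.91 and 10.89 in noggin and 10.85 and 10.90 in BMP4, a difference of 0.03 with an interval from -0.21 to 0.27. Elovl1 differed by -0.02 and Cyp4f39 by -0.02, each with overlapping groups. Cers3 measured 10.02 and 10.23 in noggin, against 10.25 and 10.26 in BMP4, and its difference of -0.13 came mostly from noggin replicate 1.

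Pnpla1, the transacylase that attaches linoleate to the hydroxylated ceramide, and Abhd5, the cofactor that delivers the linoleate from triglyceride, did not share a direction. Pnpla1 measured 9.13 and 8.86 in noggin and 9.03 and 9.24 in BMP4, a difference of -0.14 that lay between -0.28 and -0.00 on leaving out 1 array. Abhd5 measured 11.57 and 11.61 in noggin, against 11.42 and 11.48 in BMP4, with no overlap and a difference of 0.14 (interval -0.10 to 0.38). Slc27a4, an acyl-CoA synthetase and fatty acid transporter needed for the barrier, measured 7.91 and 7.87 in noggin and 7.52 and 7.96 in BMP4, so that BMP4 replicate 1 alone was low.

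Ugcg, which glucosylates ceramide for packing, had the largest difference of the barrier genes. It measured 9.996 and 10.05 in noggin, against 9.62 and 9.83 in BMP4, a difference of 0.30 with an interval from -0.01 to 0.61 (limma adjusted p = 0.874). The groups did not overlap, and leaving out 1 array gave differences from 0.19 without BMP4 replicate 1 to 0.40 without BMP4 replicate 2. Abca12, which loads glucosylceramide into lamellar granules, stood the same way at 11.02 and 11.08 in noggin, against 10.76 and 10.97 in BMP4, a difference of 0.19 that was 0.08 without BMP4 replicate 1. Smpd1, the acid sphingomyelinase that frees ceramide from sphingomyelin, differed by -0.01, and Acer1, the alkaline ceramidase of the upper epidermis, by -0.02.

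The enzymes that make fatty acids from citrate differed little between the lines, and none passed the test. Acly, which makes cytosolic acetyl-CoA, differed by 0.15, with BMP4 replicate 1 at 8.04 and the other arrays between 8.29 and 8.36, and by 0.01 without that array. Acaca and Acacb, the acetyl-CoA carboxylases, differed by -0.07 and 0.04. Fasn, the synthase of palmitate, measured 7.77 and 7.62 in noggin and 7.71 and 7.74 in BMP4, a difference of -0.03 with an interval from -0.30 to 0.25. A second, dimmer probe set of Acaca differed by 0.04.

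Elovl6, which lengthens palmitate to stearate, measured 10.10 and 9.89 in noggin, against 9.24 and 9.59 in BMP4. The noggin arrays were the upper pair, with group means of 9.99 ± 0.15 in noggin and 9.42 ± 0.25 in BMP4 (SD, n = 2 each). The noggin mean was 1.49-fold the BMP4 mean, a difference of 0.58 with an interval from 0.12 to 1.03 (limma adjusted p = 0.848). Leaving out 1 array gave differences from 0.40 without BMP4 replicate 1 to 0.75 without BMP4 replicate 2.

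Scd1, the desaturase that makes oleate and palmitoleate, followed the same order of arrays. It measured 10.67 and 10.61 in noggin, against 9.86 and 10.30 in BMP4, a 1.47-fold difference of means (0.56, interval 0.07 to 1.04, limma adjusted p = 0.867). The noggin arrays were close together and the BMP4 arrays were not, and the difference was 0.34 without BMP4 replicate 1. Scd2, a close relative, measured 9.01 and 8.87 in noggin and 8.58 and 8.81 in BMP4, with no overlap and a difference of 0.24 (limma adjusted p = 0.934) that was 0.13 without BMP4 replicate 1. The Scd genes are close copies of each other, and probes that bind several of them could mix their values, which was not checked.

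Elovl3 and Scd3, genes of mouse sebaceous glands, varied more within the lines than between them. Elovl3 measured 6.71 and 5.27 in noggin and 4.61 and 5.86 in BMP4, and the BMP4 replicate 1 value lies below the lower quartile of that array, 4.72, where detection is unknown. Scd3 measured 6.99 and 5.11 in noggin and 5.43 and 5.99 in BMP4. In both genes noggin replicate 1 was the highest array and BMP4 replicate 2 the next. Each had a spread within groups greater than that of 99.7% of named genes, the widest of the 35 members. The difference of Scd3 was 0.34 with all 4 arrays, -0.60 without noggin replicate 1 and 0.06 without BMP4 replicate 1. That of Elovl3 was 0.75 with all 4, 0.03 without noggin replicate 1 and 0.13 without BMP4 replicate 1.

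The other fatty acid genes did not pass the test either. Elovl5, an elongase of polyunsaturated chains, measured 8.85 and 8.51 in noggin and 8.51 and 8.0002 in BMP4, a difference of 0.43 (interval -0.20 to 1.06). Its noggin replicate 2 and BMP4 replicate 1 values are nearly equal, and the difference was 0.18 without BMP4 replicate 2. Elovl7, an elongase of long saturated chains, was bright and steady, at 12.42 and 12.43 in noggin and 12.31 and 12.37 in BMP4. The polyunsaturated fatty acid desaturases Fads1 and Fads2 differed by -0.14 and -0.01, and their relative Fads3 by 0.23, with BMP4 replicate 1 the lowest array for Fads3 and a difference of 0.08 without it. Fabp5, the fatty acid carrier of keratinocytes, measured 12.56 and 12.52 in noggin and 12.58 and 12.52 in BMP4, and its second probe set differed by -0.01 as well.

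**Figure D2:**
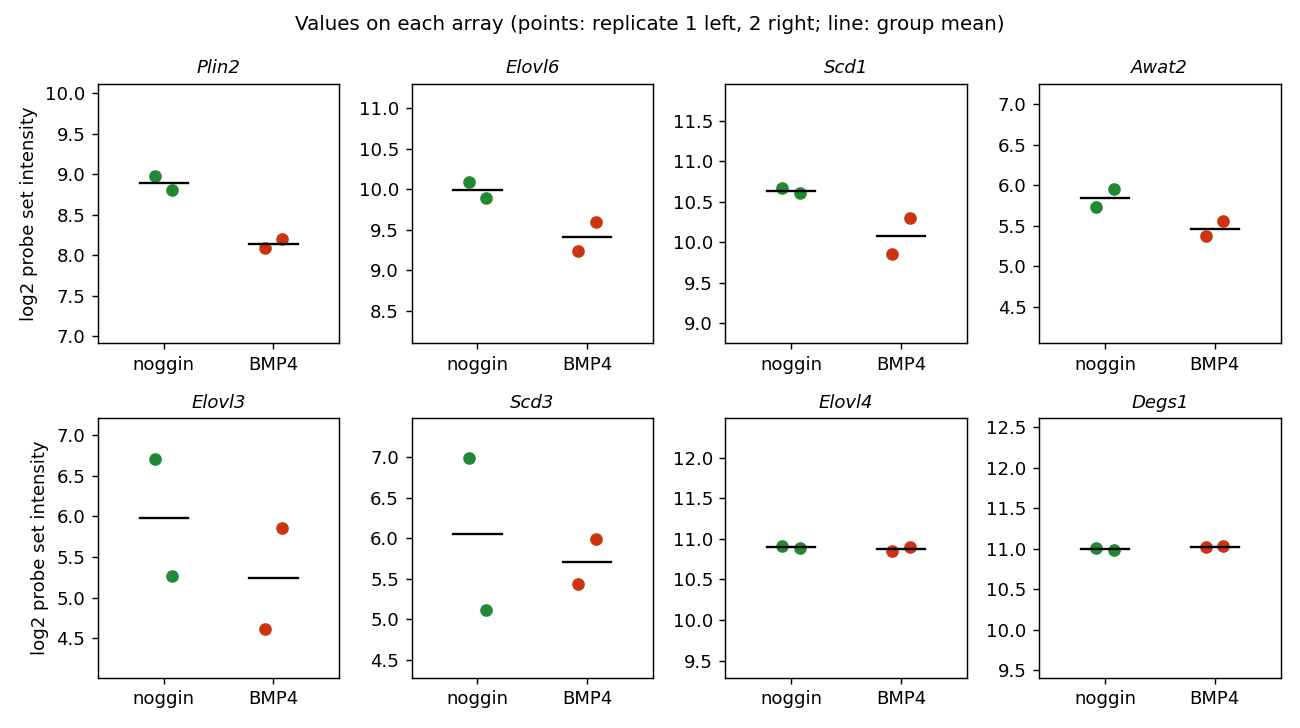
Log2 probe set intensity (y axis) of 8 genes on each array, noggin left and BMP4 right in each panel, with points for the 2 arrays and a line for the group mean, every panel spanning the same log2 range. Plin2, Elovl6, Scd1 and Awat2 have both noggin points above both BMP4 points, Elovl3 and Scd3 scatter within each line, and Elovl4 and Degs1 are level.

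Plin2 had the clearest difference of the 35 genes. It encodes perilipin 2, the protein that coats lipid droplets in most cells that store neutral lipid. Plin2 measured 8.98 and 8.81 in noggin, against 8.09 and 8.19 in BMP4, with group means of 8.89 ± 0.12 in noggin and 8.14 ± 0.075 in BMP4 (SD, n = 2 each). The noggin mean was 1.69-fold the BMP4 mean, a difference of 0.75 with an interval from 0.45 to 1.05 (limma adjusted p = 0.701). The groups did not overlap, and leaving out 1 array gave differences between 0.67 and 0.84. Plin2 alone of the members kept an unadjusted p below 0.05 under all 12 alternative settings, the largest being 0.0161 (limma), and its adjusted p over those settings lay between 0.556 and 0.948. In 4 of these settings 1 line keeps a single array, which is then assumed to vary like the other line, so their p-values are weak evidence. All 12 settings refit the same arrays and are not independent of each other. The share of named genes that kept an unadjusted p below 0.05 under every setting was not counted. Elovl6 kept such a p under 9 of the 12, Scd1 under 7 and Awat2 under 6 of the 11 that measured it.

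Awat2, a wax ester synthase, was the other neutral lipid gene without overlap. It measured 5.74 and 5.95 in noggin, against 5.38 and 5.56 in BMP4, a difference of 0.38 with an interval from 0.02 to 0.74 (limma adjusted p = 0.874). Awat2 was dim, below the median of each array (6.04 to 6.06), and its detection is unknown. Its relative Awat1 measured 6.51 and 6.13 in noggin and 5.99 and 6.39 in BMP4 and overlapped. Dgat1 and Dgat2, which make the final bond of triglyceride, differed by 0.09 and 0.15, both with overlap between the lines, and Dgat2 by 0.04 without noggin replicate 1. All 5 neutral lipid genes had the higher mean in noggin, and in all 5 BMP4 replicate 1 was the lowest array.

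That array was low across much of the list. BMP4 replicate 1 was the lowest of the 4 arrays for 19 of 35 members (54.3%), against 25.9% of named genes, and noggin replicate 1 was the highest for 17 (48.6%), against 27.4%. By set, BMP4 replicate 1 was lowest for 7 of 15 barrier ceramide genes (46.7%), 7 of 15 fatty acid genes (46.7%) and all 5 neutral lipid genes. Per array, the median deviation of the neutral lipid genes from each gene's mean was 0.19 and 0.13 in noggin and -0.27 and -0.00 in BMP4. That of the fatty acid genes was 0.13 and 0.00 in noggin and -0.07 and -0.01 in BMP4. The median deviation of the barrier ceramide genes stayed within 0.05 of 0 on every array, and was lowest in BMP4 replicate 1, at -0.04.

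**Figure D3:**
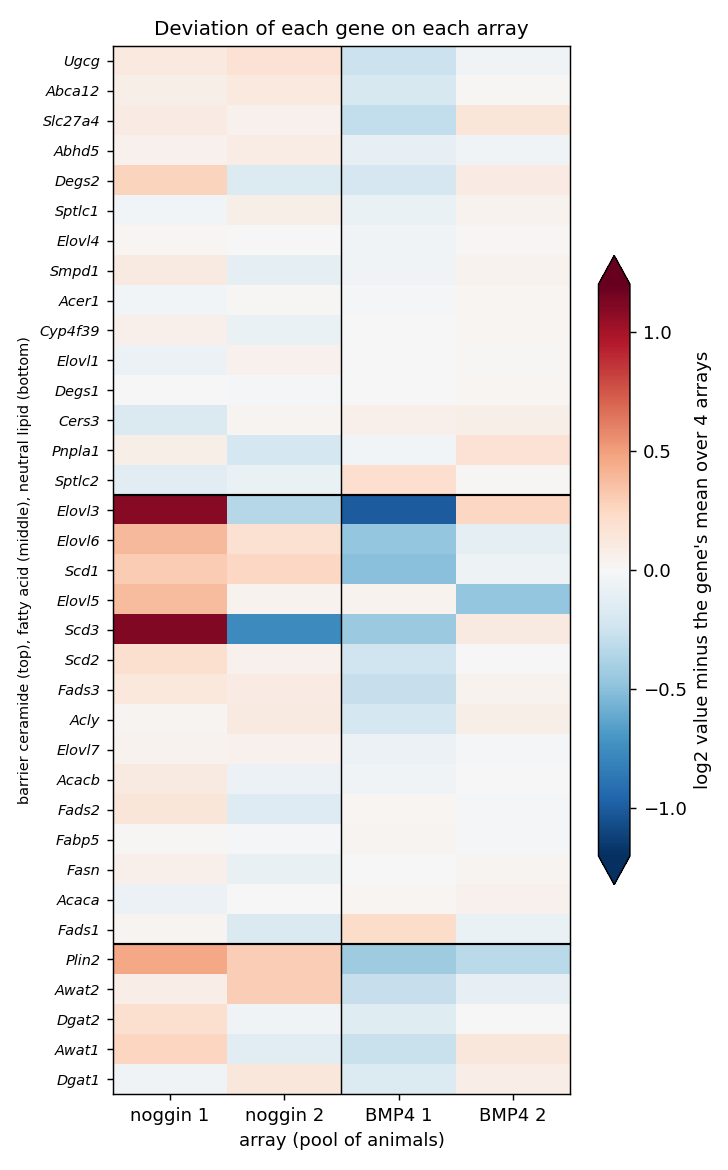
Heat map of each gene's log2 value minus its mean over the 4 arrays (colour scale in log2 units), with noggin arrays on the left, BMP4 arrays on the right, and lines between barrier ceramide, fatty acid and neutral lipid genes. The barrier block is pale, and the strongest colours are those of Elovl3 and Scd3, both high in noggin replicate 1, with Elovl3 low in BMP4 replicate 1 and Scd3 low in noggin replicate 2.

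By median deviation, the sebaceous gland, Langerhans cell, muscle and dermal fibroblast markers were also lowest on BMP4 replicate 1. The adipocyte and eccrine gland markers were lowest on noggin replicate 2. Of 9 measured sebaceous gland markers outside the member list, all 9 had a noggin mean above the BMP4 mean (median difference 0.18), and BMP4 replicate 1 was the lowest array for all 9. The lines overlapped in 7 of the 9, and 2 had both noggin arrays on top, a pattern seen in 15.7% of named genes. The sign of 4 of the 9 was not kept on leaving out 1 array, as for 10505 of 19938 named genes. Their summed linear intensity was 4725 and 4202 in noggin and 3012 and 4037 in BMP4. The glandular receptor Mc5r was dim, at 5.25 and 5.05 in noggin and 4.79 and 5.15 in BMP4, while Mgst1, a glutathione transferase, had a difference of 0.75 with no overlap (limma adjusted p = 0.736) and Fa2h, a fatty acid hydroxylase, one of 0.77 with overlap that was 0.08 without BMP4 replicate 1. Leaving out BMP4 replicate 1 put the median difference of these markers at 0.04, and leaving out BMP4 replicate 2 put it at 0.46. Several of these markers also stand in the wider lipid lists below, Pparg and Fa2h among them, and Mgst1 was named after its values were seen. Their part in the fatty acid and neutral lipid results was not tested.

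Adipocyte markers did not follow the lines. Of 10 measured, 5 had the higher mean in noggin and 5 the lower (median difference -0.05), and their intensities summed to 1321 and 867 in noggin and 828 and 1215 in BMP4. Adipoq, the adipocyte hormone, measured 6.68 and 5.69 in noggin and 5.67 and 7.28 in BMP4, and Plin1, the perilipin of fat cells, 6.42 and 6.42 in noggin and 6.37 and 6.41 in BMP4. All 7 Langerhans cell markers had the higher mean in noggin (median difference 0.68, and 0.36 without BMP4 replicate 1), and their intensities summed to 2586 and 2895 in noggin and 1116 and 2120 in BMP4. So did all 7 skeletal muscle markers (median difference 0.79, and 0.18 without BMP4 replicate 1), which summed to 5054 and 2567 in noggin and 1323 and 3176 in BMP4. BMP4 replicate 1 was again the lowest array for all 7 Langerhans cell, 6 of 7 muscle and all 7 dermal fibroblast markers, although the fibroblast markers had a median difference of -0.01. Eccrine gland markers, the glands that paw skin does have, had a median difference of -0.10 over 7 genes. The part of these cells in the member values was not tested, and in pooled tissue a change in the number of cells of a type and in RNA per cell cannot be told apart.

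Of the keratinocyte layers, granular markers had a median difference of 0.10 over 5 genes, suprabasal markers 0.03 over 4 and basal markers -0.12 over 6. Their summed intensities overlapped for the granular and suprabasal layers, at 12085 and 12851 in noggin and 11227 and 12735 in BMP4 for the granular layer. For the basal layer they were 13813 and 14813 in noggin, against 15542 and 14952 in BMP4. The barrier ceramide genes, which act in the granular layer, had a median difference of -0.01 beside them. Of the granular markers, 3 had the higher mean in noggin and 2 the lower. They ran from -0.33 for Cdsn, without overlap, to 0.98 for Flg2, with overlap. Of the basal markers, 5 had the lower mean in noggin. Itga6 had the higher, with a difference of 0.18 and no overlap.

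**Figure D4:**
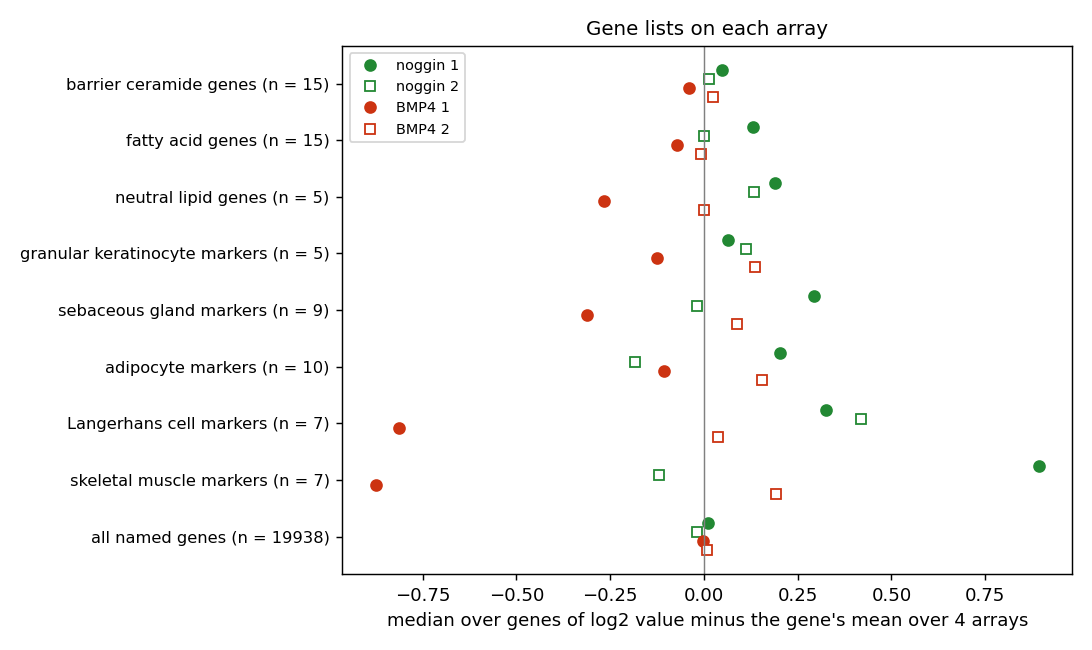
Median over the genes of a list of the log2 value minus each gene's mean (x axis), for the 3 member sets, 5 marker lists and all named genes, with noggin in green, BMP4 in red, filled circles for replicate 1 and open squares for replicate 2. The filled red circle of BMP4 replicate 1 is lowest for the 3 member sets and for the granular, sebaceous, Langerhans cell and muscle markers. For the adipocyte markers and all named genes the lowest is noggin replicate 2. The medians of the barrier ceramide genes lie within 0.05 of 0.

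The rest of the pathway was read from wider lists of genes, in which 0 passed the adjusted threshold. Of 31 other sphingolipid genes, 23 (74.2%) had the higher mean in noggin, against 47.8% of named genes. The median difference of the 31 was 0.06, and from 0.02 without BMP4 replicate 1 to 0.09 without BMP4 replicate 2. An unadjusted p below 0.05 was found for 0 of them, against 4.28% of named genes. The smallest p belonged to Ormdl1, a brake on serine palmitoyltransferase, with a difference of 0.28, followed by the lactosylceramide synthase B4galt6 (0.50), the small transferase subunit Sptssb (-0.16) and the ceramide synthase Cers2 (0.35). Leaving out 1 array put the difference as low as 0.15 for Ormdl1, 0.21 for B4galt6 and 0.11 for Cers2. Sptssb lies below the lower quartile on all 4 arrays and B4galt6 on 1. The lipoxygenases Alox12b and Aloxe3 and the dehydrogenase Sdr9c7, which oxidise the linoleate of finished barrier ceramides, differed by -0.07, 0.06 and 0.01, and were named for their role after their values were seen.

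Of 31 other fatty acid genes, 19 (61.3%) had the higher mean in noggin, against 47.8% of named genes. The median difference of the 31 was 0.02, and from -0.07 without noggin replicate 1 to 0.04 without BMP4 replicate 2. An unadjusted p below 0.05 was found for 2 of them (6.45%), against 4.28% of named genes. Acsl4, an acyl-CoA synthetase that favours arachidonate, measured 7.28 and 7.37 in noggin, against 7.01 and 7.003 in BMP4, a difference of 0.32 (limma adjusted p = 0.848). Slc27a6, a fatty acid transport protein, measured 5.09 and 5.50 in noggin, against 4.82 and 4.69 in BMP4, a difference of 0.54 (limma adjusted p = 0.870). Both were without overlap, but Slc27a6 differed by 0.33 without noggin replicate 2, and its BMP4 replicate 2 value lies below the lower quartile of that array. Hacd2, a dehydratase of the fatty acid elongation cycle, and Acsl5 differed by 0.21 and 0.20, and Acsl5 by 0.13 without BMP4 replicate 2.

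Of 32 other neutral lipid genes, 20 (62.5%) had the higher mean in noggin, against 47.8% of named genes. The median difference of the 32 was 0.04, and from -0.01 without noggin replicate 1 to 0.06 without BMP4 replicate 2. An unadjusted p below 0.05 was found for 1 gene (3.12%), against 4.28% of named genes. That gene was Lipm, a lipase of the upper epidermis, at 10.92 and 11.01 in noggin, against 10.64 and 10.74 in BMP4, a difference of 0.27 (limma adjusted p = 0.874). Lipn, a lipase of the same family, differed by 0.62, Fitm2, which helps lipid droplets form, by 0.32, and the monoglyceride lipase Mgll by 0.64, with overlap. Leaving out 1 array put the difference as low as 0.34 for Lipn, 0.14 for Fitm2 and 0.30 for Mgll, and BMP4 replicate 1 of Lipn lies below the lower quartile of its array. The other perilipins, named after their values were seen, were Plin1 with a difference of 0.03, Plin3 with -0.09, Plin4 with -0.13 and Plin5 with -0.30, none of which passed the test.

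Of 19 regulators of lipid synthesis, 8 (42.1%) had the higher mean in noggin, against 47.8% of named genes. The median difference of the 19 was -0.04, and from -0.07 without BMP4 replicate 1 to 0.04 without noggin replicate 2. An unadjusted p below 0.05 was found for 0 of them, against 4.28% of named genes. Srebf1, the transcription factor that drives Fasn and Scd1 in liver, measured 7.64 and 7.56 in noggin, against 7.81 and 7.76 in BMP4, a difference of -0.19 (limma adjusted p = 0.925). Mlx, a partner of carbohydrate-response factors, differed by -0.28, Ppara, a fatty acid receptor, by -0.20, and Insig1, which retains SREBP in the endoplasmic reticulum, by 0.18. Leaving out 1 array put these differences at -0.18 for Mlx and -0.12 for Ppara at their smallest, and at 0.11 for Insig1. Pparg, the receptor that drives sebocyte and fat cell differentiation, was also named after its values were seen and was level, at 5.63 and 5.56 in noggin and 5.50 and 5.67 in BMP4.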

How the data were processed

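The authors' deposited values are log2 probe set intensities of 4 arrays, made with Affymetrix Expression Console and RMA per the submitters' processing notes, with no version or settings given. RMA corrects background, normalizes quantiles between arrays and summarizes probes, which removes overall signal differences and compresses changes of dim genes. Detection above background is unknown. RNA was amplified with the NuGEN pico protocol, per the labels' protocols. Of 35556 probe sets the platform table names 23410, of which 21789 have 1 symbol and 1621 several.

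The lines were compared by limma 3.58.1 under R 4.3.3 (lmFit and eBayes on a 2-group design, 2 residual and 2.08 prior degrees of freedom, two-sided) and adjusted by Benjamini-Hochberg over all probe sets at 0.05. No p was adjusted over the members alone. Intervals are 95% and unadjusted. The pools are of different animals, and the small number of arrays limits the precision. Members, gene lists, the rule naming genes (all members and the 4 of smallest p in each wider list) and motifs were chosen with earlier results of these data known. Same-numbered arrays did not pair (correlation of deviations from group means -0.12). On simulated data for this comparison (35556 probe sets), limma called 3.4% of probe sets changed by 1 log2 unit and 70.3% of those changed by 2. Figures used matplotlib 3.10.9 in Python 3.11.15. The alternatives tried are given in the closing section, and the crossed pairing among them was chosen after seeing the data.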

Additional observations from a re-analysis of the deposited data

How the results depend on the processing

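Limma called 0 probe sets and 0 members at an adjusted p of 0.05 in the fit as reported and under all 12 alternatives: the replicate block, each array left out, dim probe sets left out, median centring, quantile normalization, cyclic loess, a trend and robust prior, averaging a gene's probe sets, and the crossed pairing, which was chosen after seeing the data. The crossed pairing gave 0 called probe sets, with 2441 at an unadjusted p below 0.05, against 1994 in the fit as reported and 1736 with the replicate block. The replicate block gave 4 members at an unadjusted p below 0.05, the same number as without it, and the replicate numbers are not a known pairing. Members at an unadjusted p below 0.05 numbered 2 under cyclic loess and from 2 to 5 on leaving out 1 array. Leaving out dim probe sets kept 30 of the 35 members.

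On leaving out 1 array the median difference ranged from -0.037 to 0.040 for barrier ceramide, from 0.031 to 0.18 for fatty acid and from 0.076 to 0.33 for neutral lipid members. The other alternatives moved these medians by less than the spread between replicates. No member was called, and the sign of 16 of 35 members turned on leaving out 1 array, as for 10505 of 19938 named genes. Those ranges were -0.048 to 0.12 for Acacb, -0.040 to 0.0035 for Acer1, -0.074 to 0.33 for Awat1, -0.092 to 0.053 for Cyp4f39, -0.11 to 0.32 for Degs2, -0.033 to 0.21 for Dgat1, -0.080 to 0.039 for Elovl1 and -0.00075 to 0.056 for Elovl4. They were -0.042 to 0.020 for Fabp5, -0.28 to 0.012 for Fads1, -0.16 to 0.14 for Fads2, -0.10 to 0.046 for Fasn, -0.60 to 1.28 for Scd3, -0.072 to 0.37 for Slc27a4, -0.11 to 0.10 for Smpd1 and -0.025 to 0.10 for Sptlc1. Under cyclic loess Fads2 stood at 0.0085 and had the opposite sign to the reported -0.01. The causes were not tested.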
